A study of Mus musculus with 4 samples.

Results

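Mouse genes without an established name carry placeholder symbols, and N6-methyladenosine (m6A) sites in such genes are described here. A site was included when its deposited gene name was Gm followed only by digits, the form used for predicted genes, or ended in Rik, the form used for genes first known from RIKEN full-length cDNA clones. Measured values played no part in the choice. The rule found 522 of 14277 sites, in 326 genes: 227 of 6035 sites in a first deposited list and 295 of 8242 in a second, called list 1 and list 2. Gm genes held 100 sites of list 1 and 126 of list 2, and Rik genes held 127 and 169. The remaining 5808 sites of list 1 and 7947 of list 2 are called all other sites.

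m6A is a methyl mark that a nuclear complex with the METTL3 and METTL14 proteins places on adenosines of RNA, and reader proteins that bind it affect the splicing, decay and translation of the marked transcript. In messenger RNA it is best known near stop codons, in long exons and in 3′ untranslated regions, within short motifs such as GGAC. Genes with placeholder names include coding genes whose product was not studied when the list was annotated, long non-coding RNAs, and pseudogenes, which are copies of other genes that usually lack a working reading frame. Pseudogenes and recently duplicated genes share much of their sequence with other places in the genome, so a short read can match several of them.

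The sites come from MeRIP-seq, which sequences RNA fragments bound by an m6A antibody (IP) and, in parallel, fragments taken before the precipitation (input). The labels give 2 control IP libraries and 2 control input libraries from epidermal keratinocytes of newborn mice (P0), and every library has the genotype K14Cre, Mettl14F/+ and no treatment. The K14 promoter directs Cre to keratinocytes, so that these controls carry the recombinase and 1 floxed Mettl14 allele, and no second genotype was analysed here. Neither list is tied to a library, and nothing says whether the replicates were separate animals. Each list gives, per site, the authors' own fold enrichment of IP over input, a score that is 10 times the negative log10 of the p-value, a false discovery rate (FDR) and a length. The lists hold no read counts, so the depth behind a value is unknown and no test over samples could be made. The 95% intervals below (Wilson for shares, order-statistic for medians) cover counting error over sites only, and sites of one gene or of near-identical genes are not independent. Of 13 keratinocyte marker genes 8 held a site in either list, and Krt14, Krt1, Krt10, Perp and Sfn held none. Of the other markers, 5 of 6 fibroblast, 3 of 4 melanocyte, 3 of 4 endothelial and 1 of 3 immune genes held a site. A site needs both transcription and IP enrichment, so these counts do not measure how many cells of each type were present.

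A short piece of sequence shows what part of these sites looks like. No whole genome was used, and sequence was read only where a site crossed the window from 250 bases before to 50 bases after a gene start in RefSeq's table on GRCm38.p6. Such stretches were available for 34 of the Gm and Rik sites (at least 20 bases each), and the ones below were chosen because the site was found in both lists at folds above 20, or because they show a non-coding transcript or a motif. Capitals mark a GGAC or GGACT motif on the printed strand, which is that of the gene whose window was read and may differ from the strand of the marked RNA. Stretches in coding genes were kept to at most 30 bases.
Gm101, chr1:119997056-119997085, plus strand: ctcgcccccacccGGACccgatccctagat
1700021F05Rik, chr10:43540969-43540994, minus strand: ggtggctcccgcctgcggtcggcgcg
1700016H13Rik, chr5:103655447-103655476, plus strand: gcatggaaccccaggggtgcgctggctacc
D630003M21Rik, chr2:158229195-158229224, minus strand: ctgtccgggtctggctgcccctcgggatga
2310067B10Rik, chr11:115777267-115777296, minus strand: tcctccccaacatGGACaaaccccggtgag
1700008J07Rik, chr7:127512820-127512869, minus strand: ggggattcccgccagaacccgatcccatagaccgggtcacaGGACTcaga
2310068J16Rik, chr15:99973238-99973287, minus strand: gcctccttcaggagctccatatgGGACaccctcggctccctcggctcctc
A330008L17Rik, chr8:99416642-99416723, plus strand: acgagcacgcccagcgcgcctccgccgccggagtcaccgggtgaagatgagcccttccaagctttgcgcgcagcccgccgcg
The first 5 stretches belong to coding genes and the last 3 to non-coding RNA genes. Those of Gm101, 1700016H13Rik and 2310067B10Rik were read from the start windows of Gm33817, Gm42138 and Gm46302, whose strand is printed, and the others from the gene's own window. Gm101, now Cfap221, a ciliary protein gene, had exactly the printed site in both lists, with a fold of 52.60 in list 1 and 48.08 in list 2. 1700021F05Rik, now Mtres1, which encodes a mitochondrial RNA-binding protein, had a site at its start, with 47.63 in list 1 and 49.80 in list 2. 1700016H13Rik had 44.63 and 46.74, and D630003M21Rik 22.32 and 28.05, in list 1 and list 2 in that order. The non-coding 1700008J07Rik had a fold of 5.64 at the printed place in list 1 and no overlapping site in list 2. 2310068J16Rik had 3.97 in list 2 alone, and A330008L17Rik had 3.19 in list 1 alone.

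Motif content did not separate these stretches from those of all other sites at this number of stretches. GGAC, searched on both strands, was found in 19 of 34 Gm and Rik stretches (55.9%, interval 39.5 to 71.1) and in 198 of 491 other stretches (40.3%, interval 36.1 to 44.7). GGACT, which contains GGAC, was found in 11.8% of the Gm and Rik stretches and 12.02% of the others. AGACT was found in 8.82% and 8.96%, and AAACT in 8.82% and 8.76%. Of all 32851 windows of 300 bases, 87.7% held GGAC, 45.5% GGACT, 45.9% AGACT and 43.3% AAACT. The stretches had a median of 54 bases in Gm and Rik sites and 50 in all other sites, far shorter than a window, so these shares cannot be set against those of whole windows.

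The placeholder symbols covered several kinds of gene. Of the 326 genes 286 (87.7%) were found in the RefSeq table. It gave 186 (57.1%) as protein coding, 40 (12.3%) as non-coding RNA and 60 (18.4%) as pseudogenes, and another 40 had no match. Among the 6298 other genes with a site, 99.2% were protein coding. The 2 naming forms differed in make-up: 47 of 146 Gm genes were coding and 57 were pseudogenes, whereas 139 of 180 Rik genes were coding and 3 were pseudogenes.

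**Figure D1:**
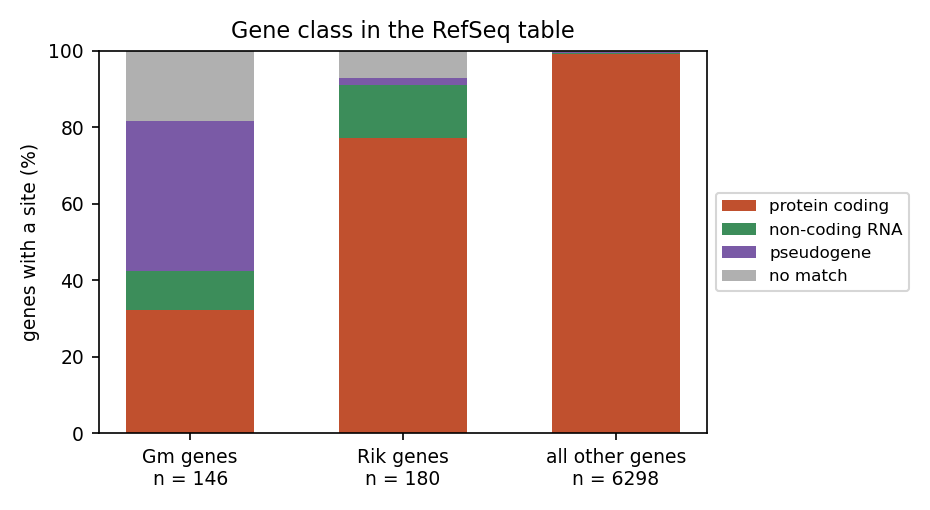
Share of genes with a site (vertical axis, percent) by class in the RefSeq table, for 146 Gm genes, 180 Rik genes and 6298 other genes. Pseudogenes make up 39.0% of the Gm genes and 1.67% of the Rik genes, against 0.143% of all other genes.

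Many of the coding genes have since been named. The RefSeq table listed 27 of the Gm genes and 75 of the Rik genes under another symbol, and 89 of these were coding. Examples chosen after their values were seen include subunits of the WASH complex, which nucleates actin on endosomes: A230046K03Rik is now Washc4 and E430025E21Rik is now Washc5. 2010111I01Rik is now Aopep, an aminopeptidase, Gm340 is now Lcor, a nuclear receptor corepressor, and 1810019J16Rik is now Kdf1, a regulator of keratinocyte differentiation. The deposited annotation had little to say about these genes. A cellular component term was present for 57.1% of Gm and Rik genes and 97.4% of all other genes, and a pathway for 3.07% and 37.7%. Where a molecular function term was given, it included the uninformative root term for 88.8% of 188 Gm and Rik genes and 17.6% of 6037 other genes.

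Sites in Gm and Rik genes were found again in the other list more often than all other sites. In list 1, 100 of 227 (44.1%, interval 37.7 to 50.6) shared at least 1 base with a site of list 2, against 36.4% of all other sites (interval 35.2 to 37.6) and 36.7% of the whole list. In list 2, 100 of 295 (33.9%, interval 28.7 to 39.5) overlapped a site of list 1, against 26.5% (interval 25.6 to 27.5) and 26.8% of the whole list. The differences were 7.65 percentage points in list 1 (interval 1.23 to 14.3) and 7.39 in list 2 (interval 2.13 to 13.0). These intervals take sites as independent. With 1 site per gene, that of the highest fold, both intervals held 0. The differences were then 7.07 points in list 1 (interval -0.012 to 14.4) and 5.01 in list 2 (interval -0.71 to 11.2). Without the 7 clusters described below, the interval was 0.14 to 14.7 in list 1 and -0.77 to 10.7 in list 2. The share was above that of all other sites for both forms of name, at 45.0% in list 1 and 35.7% in list 2 for Gm genes, and at 43.3% and 32.5% for Rik genes. With an overlap of at least 50% of both sites the shares were 40.1% of Gm and Rik sites and 30.4% of all other sites in list 1 (whole list 30.7%), and 30.8% and 22.2% in list 2 (whole list 22.5%). The intervals of the first comparison did not overlap, but by a margin of about 0.1 points in list 1. Among coding genes alone, a choice made after seeing the data, the shares in Gm and Rik genes were 41.98% (interval 33.9 to 50.5) in list 1 and 31.8% (interval 25.3 to 39.1) in list 2, each interval reaching below the share of all other sites.

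**Figure D2:**
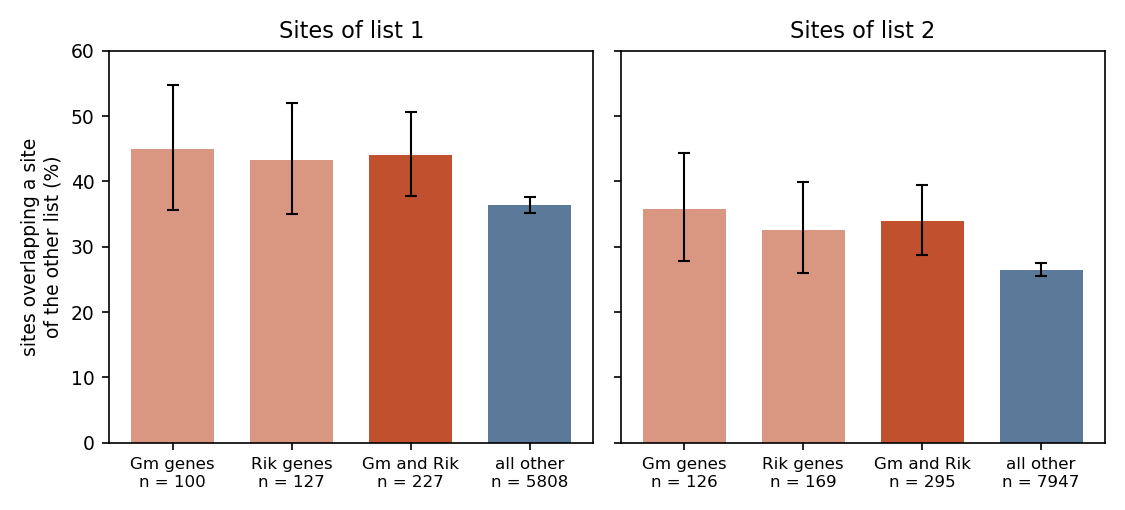
Share of sites that overlap a site of the other list by at least 1 base (vertical axis, percent; bars, with 95% Wilson intervals) for Gm genes, Rik genes, both together and all other genes, in list 1 and list 2. Gm and Rik sites stand at 44.1% and 33.9%, and all other sites at 36.4% and 26.5%.

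The higher share was found at most but not all lengths and folds. By length, it was above that of all other sites up to 50 bases (43.3% against 29.7% in list 1, and 34.5% against 19.3% in list 2) and above 200 and up to 400 bases (47.7% against 33.3%, and 35.3% against 24.98%). Above 100 and up to 200 bases it was below, at 36.5% against 38.6% in list 1 and 25.6% against 27.5% in list 2. By fold, it was highest relative to all other sites between 10 and 40 in list 1 (55.4% against 36.3%) and between 4 and 10 in list 2 (43.1% against 27.3%). Between 40 and 200 it was 27.6% against 39.5% in list 1 and 28.3% against 25.9% in list 2. It was also below that of all other sites over 600 bases in list 1 (42.9% of 7 sites, against 60.8%) and above a fold of 200 in list 2 (35.0% of 20 sites, against 40.5%). Most of these bins hold under 100 Gm and Rik sites, and their intervals are wide.

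The classes of gene differed in how many of their sites were found again. Non-coding RNA genes had 59.1% of their 22 sites of list 1 overlapping a site of list 2, and 35.1% of their 37 sites of list 2 overlapping a site of list 1. Genes without a match had 58.8% of 34 and 46.5% of 43. Coding genes had 41.98% of 131 and 31.8% of 173. Pseudogenes had the lowest shares, 30% of 40 in list 1 and 28.6% of 42 in list 2. The intervals of all 4 classes overlapped each other in both lists.

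**Figure D3:**
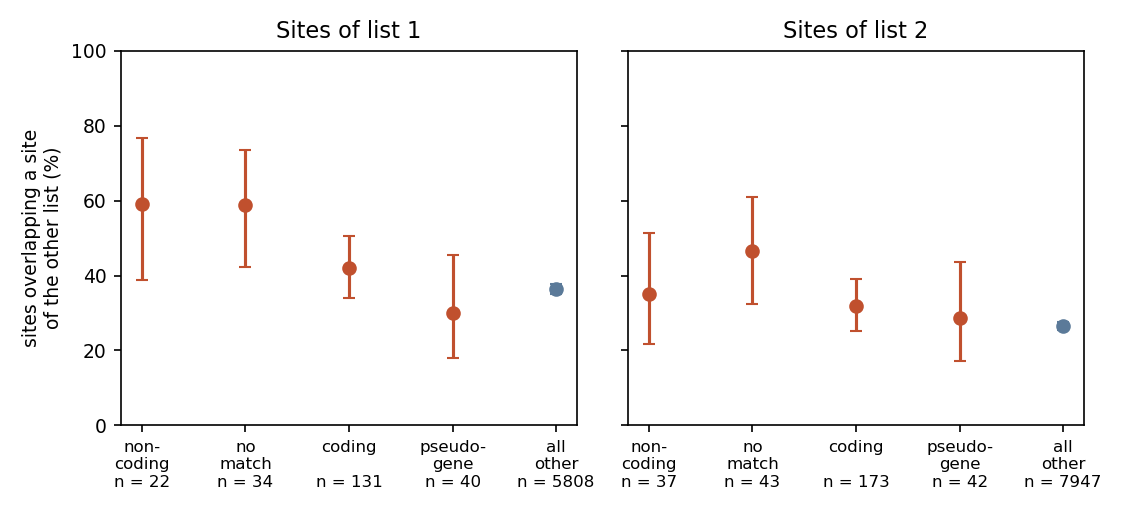
Share of sites that overlap a site of the other list (vertical axis, percent; points with 95% Wilson intervals) by class of Gm and Rik gene and for all other genes. The points run between 58.8% and 30% in list 1 for unmatched genes and pseudogenes, with non-coding RNA genes at 59.1%, and all other genes stand at 36.4%.

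Counted by gene, the picture was the other way round. Of the 326 Gm and Rik genes 107 had a site in both lists (32.8%, interval 28.0 to 38.1), against 39.7% of all other genes and 39.3% of all genes. The number of sites per gene differed beside it: a single site was held by 85.5% of Gm and Rik genes in list 1 and 86.6% in list 2, against 72.0% and 64.6% of all other genes. A gene with an overlapping pair of sites was about as frequent in both groups, at 87 of 326 (26.7%) and 27.3%. Genes with a site in each list but no overlapping one were 20 of the Gm and Rik genes (6.13%) and 783 of the other genes (12.4%). Among the 20 was 2810474O19Rik, now Resf1, a regulator of retroviral silencing, with 93.26 in list 1 and 124.02 in list 2. The median distance between nearest sites of the 20 genes was 3250.5 bases, and it was 5464 bases for the 783 other genes. A further 79 Gm and Rik genes had a site in list 1 alone (24.2%, against 23.8% of all other genes) and 140 in list 2 alone (42.9%, against 36.5%).

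Fold enrichment of Gm and Rik sites had no steady direction relative to all other sites. The median was 9.98 in list 1 (interval 7.02 to 13.1), against 11.6 for all other sites (interval 11.2 to 12.6). In list 2 it was 12.8 (interval 9.75 to 16.0), against 11.9 (interval 11.3 to 12.1). The differences of the median log2 fold were -0.22 in list 1 and 0.11 in list 2, and the intervals of the medians overlapped in both lists. Gm sites had medians of 15.9 in list 1 and 13.1 in list 2, and Rik sites 6.38 and 12.02. Non-coding RNA genes had the lowest medians among the classes, 4.78 in list 1 and 4.01 in list 2. The lower part of the distribution was crowded: 15.4% of Gm and Rik sites of list 1 (interval 11.3 to 20.7) had a fold of exactly 3.19, the most frequent value of that list, against 8.99% of all other sites. In list 2 the most frequent value was 2.67, at 11.2% (interval 8.08 to 15.3) of Gm and Rik sites and 7.03% of all others. The highest score among these tied Gm and Rik sites was 20.33 in list 1 and 17.34 in list 2, and the number of reads behind them is unknown.

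**Figure D4:**
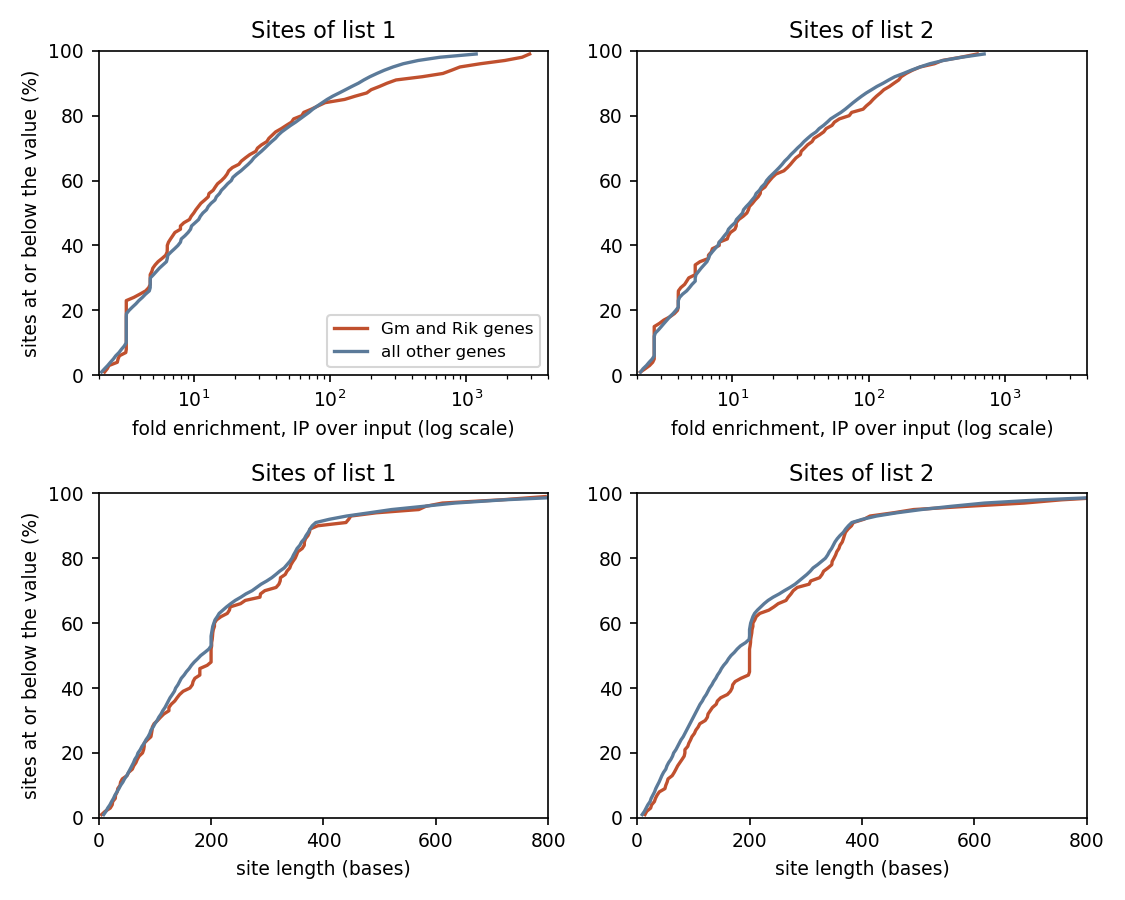
Percent of sites at or below a value (vertical axis) for fold enrichment (upper panels, log scale) and site length in bases (lower panels), in Gm and Rik genes and in all other genes, by list. The fold curves cross in both lists, and the length curves of list 2 are parted around the medians of 200 bases in Gm and Rik genes and 167 bases in all other genes.

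Fewer of the Gm and Rik sites reached a strict p-value. At a deposited p of 1e-05 or less there were 66.1% of them in list 1 (interval 59.7 to 71.9), against 74.0% of all other sites and 73.7% of the list. In list 2 there were 69.5% (interval 64.0 to 74.5), against 77.1% and 76.9%. By name form, list 1 had 77.0% of Gm sites (interval 67.8 to 84.2) and 57.5% of Rik sites (interval 48.8 to 65.7). List 2 had 69.8% of Gm sites and 69.2% of Rik sites. Of the Gm and Rik sites, 68.7% in list 1 and 59.0% in list 2 had an FDR of 100%, against 58.8% and 51.2% of all other sites. The lowest FDR of a Gm or Rik site was 55.8% in list 1 and 59.5% in list 2. Among all other sites it was 55.67% and 51.16%, so that no site of either list had a low FDR. With the strict p-value, 61 of 225 Gm and Rik genes had a site in both lists (27.1%), against 34.9% of all other genes.

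Gm and Rik sites of list 2 were longer at the median than all other sites, and in list 1 the intervals overlapped. Their median length was 200 bases in list 1 (interval 172 to 203), against 181.5 bases for all other sites (interval 174 to 191). In list 2 it was 200 bases (interval 198 to 203), against 167 bases (interval 162 to 174). The Rik sites of list 1 had a shorter median, 164 bases, and those of coding Gm and Rik genes, at 172 bases in list 1 and 171 in list 2, differed little from the 180 and 167 bases of other coding genes. A length of exactly 200 bases was found in 4.85% of Gm and Rik sites of list 1 and 7.46% of list 2, against 4.22% and 3.94% of all other sites. Sites of 50 bases or less made up 13.2% of both groups in list 1, and 9.83% of Gm and Rik sites against 15.0% of all others in list 2. Sites over 600 bases made up 3.08% of Gm and Rik sites in list 1 and 3.73% in list 2, against 3.60% and 3.17% of all other sites. Pseudogenes carried the longer sites, with medians of 366 bases in list 1 and 341 bases in list 2. The longest sites belonged to Gm6483, an annotated cadherin 11 pseudogene (1328 bases in list 2), to 2010111I01Rik, now Aopep (1102 bases in list 2), to Gm6430, an annotated hnRNP F pseudogene (1014 bases in list 1), and to Gm21092 and Gm21811 (854 bases each in list 2).

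Where a site of each list overlapped, the fold values were within 2-fold for most Gm and Rik pairs. Some of these pairs lay near the lowest deposited fold of 2, such as 4933402P03Rik (2.38 in list 1 and 2.03 in list 2) and 4930404H24Rik (3.19 and 2.67). Counting each site once there were 100 such pairs, 55 in coding genes, 13 in non-coding RNA genes, 12 in pseudogenes and 20 in unmatched genes. The median log2 ratio of list 1 over list 2 was -0.11 (quartiles -0.74 and 0.27), against 0.15 (quartiles -0.78 and 1.12) for 2100 pairs in all other genes. The values of a pair were within 2-fold in 61.0% of Gm and Rik pairs (interval 51.2 to 70.0) and 51.4% of other pairs (interval 49.3 to 53.6). They were more than 4-fold apart in 21.0% and 25.05%. Both ends were identical in 26.0% of Gm and Rik pairs (interval 18.4 to 35.4) and in 32.2% of other pairs (interval 30.3 to 34.3). Which libraries entered each list is not stated, and the folds of both lists are set side by side as a description.

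**Figure D5:**
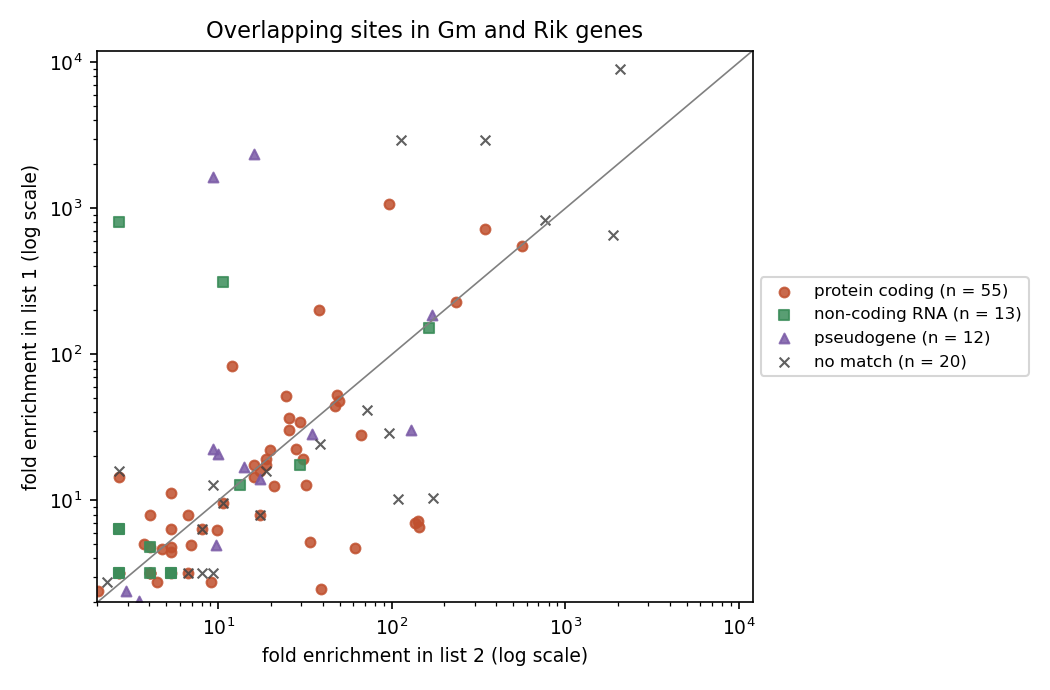
Fold enrichment in list 1 (vertical axis, log scale) and list 2 (horizontal axis, log scale) at the 100 overlapping sites in Gm and Rik genes, by gene class, with the line of equality. Most points lie near the line, and Gm10584 (800.16 in list 1 and 2.67 in list 2) and the 4933409K07Rik sites (2368.59 and 16.03 for the higher) lie far above it.

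Coding genes held several of the sites that were high in both lists. A230046K03Rik (Washc4) had a site at chr10:83574527-83574559 in list 1, and 1 base shorter in list 2, with a fold of 553.71 in list 1 and 559.57 in list 2. A second site nearby had 7.22 in list 1 and 141.39 in list 2, so that the lists were alike at the first place and apart at the second. 6330408A02Rik, now Zswim9, a zinc finger protein gene, had 727.26 in list 1 and 342.80 in list 2 at chr7:13260453-13260807 (ends as in list 1). 1700040L02Rik, now Cabcoco1, which encodes a calcium-binding protein of cilia, had the same 73 bases in both lists, with 227.93 and 233.71. Gm340 (Lcor) held 5 sites within a stretch of chromosome 19. The overlapping pair had 1068.98 in list 1 and 96.40 in list 2, and the nearby unshared sites had 38.25 in list 1 and 369.96 and 7.06 in list 2. 1110004E09Rik, now Cfap298, a gene needed for motile cilia, had 201.86 in list 1 and 38.02 in list 2 at one identical site.

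Other genes, not all of them coding, had many sites, sites that did not overlap, or sites in 1 list alone. 2010111I01Rik (Aopep) held 3 sites in list 1 and 4 in list 2. At its overlapping places it had 34.53 and 30.57 in list 1, against 29.38 and 25.47 in list 2. The other places were at 4.00 in list 1 and at 94.82 and 77.46 in list 2. 4932438A13Rik held 3 and 4 sites, of which a single pair overlapped, at 3.19 in list 1 and 4.01 in list 2. E430025E21Rik (Washc5) had 5.45 in list 1 and 16.37 in list 2 at places that did not overlap. 2210018M11Rik, now Emsy, which encodes a transcriptional regulator, had 3 sites in list 2 alone, with a highest fold of 192.31. 1810019J16Rik (Kdf1) had a single site of 332 bases in list 1, with a fold of 5.02. The strongest genes found in list 1 alone were Gm10024 (765.09), 4930432K21Rik (261.41), the pseudogene Gm12394 (247.06), 2610034B18Rik, now Arpin, an inhibitor of the Arp2/3 complex (204.62), and 2210408I21Rik (189.68). Those of list 2 alone were Gm10719 (478.10), Gm10647 (476.77), A730049H05Rik (470.09), 2210016L21Rik (310.32) and the pseudogene Gm5117 (303.15).

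Few of the 40 non-coding RNA genes were strongly enriched in both lists. A230103J11Rik was the highest, with 152.07 in list 1 and 163.11 in list 2 over nearly the same 352 and 353 bases, and it lies within the span of the coding gene Tnpo2, a nuclear import receptor. A930011O12Rik, now Mir124a-1hg, the host transcript of a miR-124 gene, had 17.53 in list 1 and 29.38 in list 2 at 1 identical site. Gm9881 had 12.75 and 13.35. Others were far apart between the lists: Gm10584, within the span of Chst15, had 800.16 in list 1 and 2.67 in list 2, and B230314M03Rik, now Lrp8os2 and antisense to the receptor gene Lrp8, had 314.42 and 10.68. A730049H05Rik, within the span of Adamts9, had 470.09 in list 2 alone, and 1810032O08Rik, now the snoRNA host gene Snhg16, had 22.06 over 778 bases in list 2 alone. Since the lists give no strand, a site in a non-coding RNA cannot be told apart from a site in a coding gene at the same place. The most frequent fold values made up 40.9% of the sites of non-coding RNA genes in list 1 and 29.7% in list 2.

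Pseudogenes were 60 of the 326 genes. Of these 60, 11 had a site in both lists and 9 an overlapping site. Over all genes with a site the shares were 39.3% and 27.2%. The RefSeq description named a counterpart gene for 45, and for 23 the named gene was found among the genes with a site. No share over all genes was computed to set beside this count. Among the descriptions were 5 of ribosomal proteins, 5 of hnRNP proteins, which bind nuclear RNA, and 4 of translation factors. Gm9008, described as a pseudogene of Rnf26, which encodes a ubiquitin ligase, had 185.62 in list 1 and 169.67 in list 2, while Rnf26 itself reached 33.74 and 12.77. Gm5814, described as a pseudogene of Mrfap1, had 30.57 and 129.69, and Mrfap1 reached 2.95 and 3.34. Gm5611, described as a pseudogene of Npm1, which encodes nucleophosmin, had 4.91 in list 1 and 9.66 in list 2, and Npm1 reached 4.80 and 4.24, close to it in list 1 only. Gm9726 had 173.66 in list 2 alone, and Lysmd1, the gene of its description, had 9.42 in list 1 and 73.15 in list 2. Reads of a gene and its pseudogene may be placed at either, and their treatment was not given in the sources used here, so that these folds are uncertain for both.

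Many of the highest folds of Gm and Rik sites came from a few places in the genome where such genes lie side by side. In 7 such clusters, drawn after the positions were seen, lay 46 of the 227 sites of list 1 (20.3%) and 42 of the 295 of list 2 (14.2%). Since the clusters were picked where Gm and Rik genes lie, these shares are high by construction. Some clusters also held sites of other genes. On distal chromosome 2, for instance, 16 of 22 sites of list 1 and 6 of 13 of list 2 were in Gm and Rik genes. Near the start of chromosome 9, between 3006365 and 3037451, 8 sites of list 1 had a median fold of 1101 (4.78 to 2918.50) and 9 sites of list 2 had 112.2 (40.06 to 619.66), of which 2 in each overlapped. Gm10717 was the gene with the most sites, 6 in list 1 and 4 in list 2. On chromosome 2, Gm10800 had 9069.52 in list 1 and 2057.97 in list 2 over exactly the same 306 bases at chr2:98666735-98667040, and the first value is the highest of list 1. Its neighbour Gm10801 had 832.04 and 761.22 at the overlapping place and 3409.44 in list 1 over a site of 5 bases. On chromosome 14, Gm21738 had 661.49 in list 1 and 1876.35 in list 2 over an identical stretch of 234 bases, and 1853.75 at an unshared site of list 1. These genes belong to a list of 13 predicted genes taken as repeat-prone from general knowledge and not from the deposited lists, of which 9 had a site. Gm10715, Gm10719, Gm10721, Gm11168 and Gm17535 were the others, and their sites did not overlap between lists. All 9 lack a match in the RefSeq table.

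Further clusters held gene families. In a cluster on chromosome 4, 4933409K07Rik had 2368.59, 2142.26 and 1640.26 in list 1, and 200.32, 16.03 and 9.35 in list 2. On distal chromosome 2, 16 Gm and Rik sites of list 1 and 6 of list 2 lay in genes such as Gm14431, now the zinc finger gene Zfp967. The deposited list placed Gm14431 at several loci: its pairs had 22.06 and 19.20 in list 1 and 19.96 and 18.90 in list 2, and 4 further sites of list 1 were each 180 bases long. Gm14296, in the same cluster, had 6.99 and 6.62 in list 1, against 135.82 and 143.04 in list 2. In a cluster on chromosome 8, 5330429B09Rik held 3 sites in list 1 (29.01, 10.33 and 10.15), each 323 bases long, and 6 in list 2. The overlapping ones of list 2 had 96.27, 172.28 and 108.17, but each pair shared only 26 bases at an edge. The neighbouring pseudogenes Gm21092 and Gm21811 had 20.93 and 22.38 at corresponding places in list 1, and 9.98 and 9.26 in list 2. Some sites thus recurred at 1 length in neighbouring copies, while lengths and folds differed at other places of the same genes, and whether they share reads was not tested.

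Near-identical gene starts were more frequent among these genes than among other genes with a site. Of 181 Gm and Rik genes with a RefSeq start window, 15 (8.29%, interval 5.09 to 13.2) shared at least 100 words of 30 bases with the window of another gene, against 38 of 4950 other genes with a site (0.768%, interval 0.560 to 1.05). Of all 27025 genes with a window, with or without a site, 5.05% had such a copy (interval 4.80 to 5.32), close to the lower bound of the Gm and Rik genes. Among the 15 were Gm14308, Gm14326, Gm14391, Gm4724 and Gm14431 of the chromosome 2 family, each with 9 to 13 such copies. Gm14306, Gm14325, Gm14420 and Gm14436 had copies in the same family, so that most of the 15 belong to it. Gm14306 and Gm14436 were both matched to Zfp973, and its window was counted for each. The interval takes genes as independent and does not allow for this.

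A position within the annotated gene was available for 117 of 227 Gm and Rik sites of list 1 and 164 of 295 of list 2. Sites in pseudogenes and unmatched genes had none. For all other sites it was available for 4537 of 5808 and 6195 of 7947. Among sites with a position, a larger share of Gm and Rik sites than of other sites lay near the start. Their median position did not move the same way in both lists. It was at 72.1% of the gene span in list 1 and 57.1% in list 2, counted from the start, against 68.8% and 69.1% for all other sites. In the first 20% of the gene span lay 23.9% of those with a position in list 1 (interval 17.1 to 32.4) and 28.0% in list 2 (interval 21.7 to 35.4), against 15.4% and 14.5% of all other sites. In the last 20% lay 39.3% and 31.7%, against 38.4% and 38.3%. These positions are along the gene with its introns, not along the transcript. The genes themselves were shorter, with a median span of 12882.5 bases in 286 Gm and Rik genes and 35027 bases in 6271 other genes. Sites crossing the start window of any gene, own or another, were 8.81% of Gm and Rik sites in list 1 and 10.2% in list 2. For all other sites the shares were 5.32% and 4.64%. An edge exactly on the start of the site's own gene was found in 2.20% of Gm and Rik sites in list 1 and 2.71% in list 2. For all other sites these shares were 2.20% and 1.98%. A coding gene of another name covered the site in 20.7% of Gm and Rik sites of list 1 and 18.6% of list 2, against 2.82% and 2.92% of all other sites. D830031N03Rik is an example: its sites, with 485.43 in list 1 and 108.36 and 102.99 in list 2, lie within the span of Macf1, which encodes a large cytoskeletal linker protein.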

How the data were processed

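MeRIP-seq lists of methylated sites from control epidermal keratinocytes were used as deposited by the authors. Per the file headers, each site has a fold enrichment (a ratio of IP to input, never below 2), a score of 10 times the negative log10 of the p-value and an FDR as a percent. Sites are named after the caller MACS in the deposited lists. Its version, the aligner and the filters were not given in the sources used here. Positions refer to GRCm38, as the submitters' processing notes say. No library values were used, so depth is unknown.

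1 was added to each deposited start. Sites overlapped when sharing at least 1 base on a chromosome, regardless of strand. Genes were matched to RefSeq's table (GRCm38.p6) by gene ID, transcript, symbol or synonym. The members and gene lists were chosen with earlier results of these data known. Genes named are the 10 with the highest lower fold at an overlapping site, the 8 with the most sites, the 5 highest per list without a site in the other, the 5 with the longest site, 6 renamed genes and the 13 repeat-prone genes. Others named were chosen after their values were seen. The alternatives were a 50% overlap, p of 1e-05 or less (in one or both lists), FDR below 100%, the 50% with the higher fold, merged sites, 1 site per gene, either name form and removal of the repeat-prone genes. Those added after seeing the data were coding genes only, sites without the most frequent fold value and sites outside the 7 clusters. Intervals of differences combine those of both groups by Newcombe's method. The overlap step and the interval of a median were checked on simulated data, the latter on values without ties. The intervals of shares and of differences were not simulated. Python 3.11.15, pandas 2.3.3, numpy 2.4.6, scipy 1.17.1 and statsmodels 0.14.6 were used. 1 gene is not reported here.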

Additional observations from a re-analysis of the deposited data

How the results depend on the processing

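The overlap of Gm and Rik sites exceeded that of all other sites under all 12 alternatives in each list, by 5.69 to 9.72 points in list 1 and 4.71 to 9.20 points in list 2, but the interval of the difference held 0 under 7 of them in list 1 and 5 in list 2 (coding genes only: -2.51 to 14.3 and -1.14 to 12.7). Merging touching sites, which is among the 12, left the number of Gm and Rik sites and every value and interval unchanged, so it adds no support. With p of 1e-05 or less in both lists the share in list 2 was 27.8%. The difference of the median log2 fold changed sign in list 1 with p of 1e-05 or less (0.11), FDR below 100% (0.94) and Gm genes only (0.44), and in list 2 with 1 site per gene (-0.15), without the repeat-prone genes (-0.091) and without the 7 clusters (-0.15). It was further from 0 in list 1 with 1 site per gene (-0.77), Rik genes only (-0.87), coding genes only (-0.55) and without the clusters (-0.79), and in list 2 with p of 1e-05 or less (0.49) and FDR below 100% (0.65). The median fold in list 1 was 24.0 with p of 1e-05 or less, 114.8 with FDR below 100%, 15.9 for Gm genes, 6.38 for Rik genes, 14.2 without the most frequent value and 6.75 without the clusters. In list 2 it was 26.9 and 66.0 under the first pair of these. The median length in list 1 was 207 bases with p of 1e-05 or less, 211 in the 50% with the higher fold, 211.5 for Gm and 164 for Rik genes. In list 2 it was 206, 217 and, for coding genes only, 171. The length difference in list 1 changed sign for Rik genes (-17.5 bases) and coding genes (-8) and was 30 for Gm genes. In list 2 it was 44 in the 50% with the higher fold, 21 with 1 site per gene and 4 for coding genes. Genes with a site in both lists numbered 61 of 225 at p of 1e-05 or less. The cause of these changes was not tested. No paired analysis was possible because the lists carry no values per library, and for the same reason no replicate could be left out. Without counts, no error can be given for any 1 fold.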
